A study of Mus musculus with 39 samples.

Results

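The genes described here, measured in liver, are members of the ATP-binding cassette families Abca, Abcb, Abcc, Abcd and Abcg, of the organic anion transporting polypeptides (Slco) and of the Slc22a organic ion transporters. They were taken by symbol, whether or not liver RNA gave a signal, with 1 Abcb gene left out by the rule, and the probe brightest in Cy-5 on average stood for its gene. Of 86 such symbols in the RefSeq table, 73 had a probe, out of 17016 genes with a RefSeq symbol and a probe. They comprised 14 Abca, 7 Abcb, 10 Abcc, 4 Abcd, 6 Abcg, 22 Slc22a and 10 Slco genes. The other 13, among them Slco1a1 and Slco1b2, are not analysed here.

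Liver RNA of 39 male C57BL6/J mice was hybridized, 1 mouse per array, against a common reference RNA from mouse cell lines. AggE mice had spent 6 hrs daily, on 5 or 10 consecutive days, in a mesh cage inside the home cage of a trained aggressor, without food and with brief physical contacts. Ctrl mice had the same cage-within-cage sessions and food deprivation on the same schedule with no aggressor, and every mouse was housed singly and faced an aggressor across a partition about an hour before sampling. The liver was taken 24 hrs after 5 or 10 days, 1.5 wks after 5 days or 4 wks after 10 days, from 4 Ctrl and 5 AggE mice each time except at 4 wks, where each group had 6. The mice were bought a few weeks after birth, and a comparison of AggE with Ctrl asks what the encounter added to confinement, fasting and isolation. Grouping followed the source names of the liver channel, with which other labels of some mice disagree (the descriptions of AggE mice sampled 24 hrs after the 5-day regimen give 1 day, and at 1.5 wks the titles of all 5 AggE mice and of Ctrl mouse 4 give 10 days).

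These transporters work in series. Hepatocytes take up bile acids, drugs, hormones and organic cations from sinusoidal blood through Slco and Slc22a proteins, which use gradients and exchange rather than ATP. ABC transporters hydrolyze ATP to export substrates, either across the canalicular membrane into bile (Abcb1a, Abcb4, Abcc2, Abcg2, Abcg5 with Abcg8) or back across the basolateral membrane into blood (Abcc3, Abcc4, Abcc6), while Abcd and some Abcb proteins act in peroxisomes, lysosomes and mitochondria.

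Every level below is a log2 ratio of liver to reference RNA for 1 probe, so levels of different genes cannot be compared, and a difference is AggE minus Ctrl on that scale, from a limma fit of all 8 group means. A gene was called where its p-value, after Benjamini-Hochberg adjustment over 25903 RefSeq probes, was at most 0.05. In whole liver, fewer cells of a type and less RNA per cell cannot be told apart.

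How many of these genes could be measured depended on the array. By Feature Extraction's mark for a Cy-5 spot well above background, 14 of the 73 genes were detected on all 39 arrays, among them Abca7, Abcb4, Abcb6, Abcc2, Abcc3, Abcd3, Abcg2, Abcg5, Slc22a7, Slc22a18, Slc22a23, Slco2a1 and Slco2b1. With these 14, 44 genes were detected on all arrays of at least 1 group, 20 were detected on scattered arrays, and 9 (Abca15, Abcb1a, Abcc10, Slc22a3, Slc22a22, Slc22a29, Slco1c1, Slco4c1 and Slco6c1) on none. Arrays of the 4 wks mice detected 44 to 58 of the 73 genes. Arrays at 24 hrs detected 29 to 34 in Ctrl and 19 to 33 in AggE mice post-5-day, and 31 to 44 and 33 to 46 post-10-day. At 1.5 wks, 3 Ctrl mice had 21 to 26 detected genes and 4 AggE mice 17 to 25, whereas Ctrl mouse 4 and AggE mouse 2, which alone of that time point were scanned on the second day, had 42 and 49. All 4 wks mice were scanned on that second day. The share of all spots detected spanned 15.2% to 70.4% over the arrays.

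**Figure D1:**
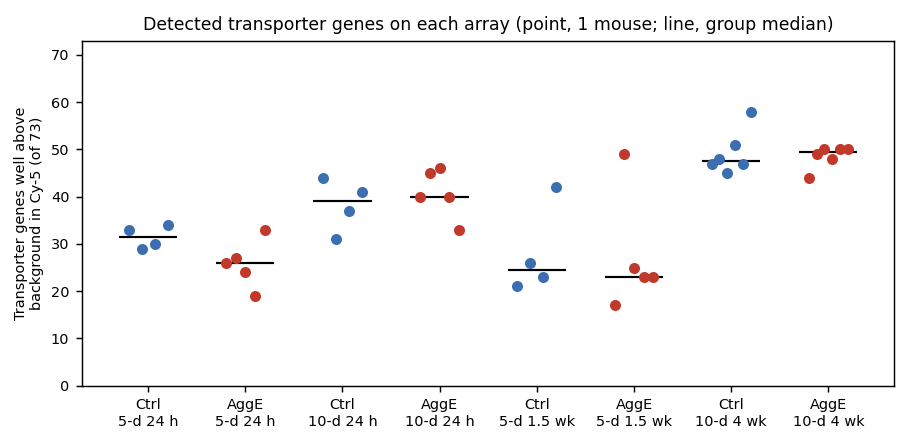
Number of the 73 transporter genes well above background in Cy-5 on each array (vertical axis, from 0 to 73), by group; a point is 1 mouse and a line the group median. Arrays at 4 wks lie at 44 to 58, and Ctrl mouse 4 and AggE mouse 2 at 1.5 wks lie far above the rest of their groups.

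The labelled tissue was checked with fixed markers. The 4 hepatocyte markers with a probe, of 6 listed, were detected on every array, and their summed Cy-5 intensity spanned 98600 to 146000 in Ctrl and 109000 to 140000 in AggE mice at 4 wks. In the 24 hrs post-5-day mice it spanned 98400 to 122000 and 110000 to 167000. Slides bear on each result. At both 24 hrs points no slide held Ctrl and AggE mice together, so slide and exposure cannot be told apart there, and 1 slide at 1.5 wks and 1 slide at 4 wks held mice of both groups.

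Across the 73 genes, few differences between AggE and Ctrl mice passed the adjusted test, and the shares were no larger than among all genes. After 5 days, 24 hrs on, 1 of 73 was called (1.37%, beside 3.28% of all genes). At 24 hrs post-10-day none was called (beside 0.094%), with 2 below an unadjusted limma limit of 0.05, and at 1.5 wks none (beside 0%), with 4 at that unadjusted limit. At 4 wks post-10-day, 2 of 73 were called (2.74%, beside 4.08%). In this fit none of the 73 combined a 2-fold difference with that unadjusted limit, beside 50, 31, 7 and 51 of all 17016 genes in these comparisons. Under other settings up to 6 of the 73 did so in 1 comparison, as with the processed signals of Feature Extraction at 24 hrs post-5-day and with no normalization between arrays at 4 wks. There, at 4 wks, slide as a fixed block gave 5 and a background offset of 16 gave 2 (Abcg5 and Slco2b1). The share over all genes was not counted under those settings. The ranges of AggE and Ctrl mice did not overlap for 3 genes at 24 hrs post-5-day (Abcd2, Slc22a8 and Slc22a17), beside 7.46% of all genes, and these 3 were detected on 0 of the 9 arrays. They did not overlap for 0 genes at 24 hrs post-10-day (beside 1.86%), for Slc22a19 at 1.5 wks (beside 0.805%), which was detected on 1 of 9 arrays, and for Abcb6 at 4 wks (beside 1.85%).

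At the unadjusted limit, 7 genes were higher and 5 lower at 24 hrs post-5-day, beside 7.97% and 8.76% of all genes. At 24 hrs post-10-day 2 were higher and 0 lower, beside 1.67% and 1.2%. At 1.5 wks 4 were higher and 0 lower, beside 1.35% and 1.1%. At 4 wks 7 were higher and 12 lower, beside 9.89% and 12.6%. The median difference over the 73 genes was 0.037, 0.027, 0.023 and 0.0064 in these 4 comparisons, and over all genes 0.0012, -0.00045, -0.0027 and 0.0093.

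**Figure D2:**
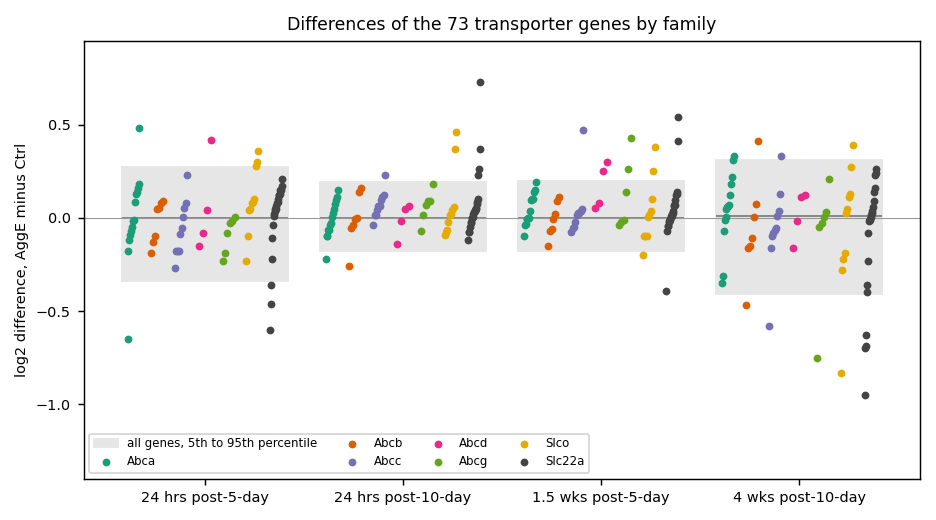
Difference of AggE minus Ctrl (log2) for each of the 73 transporter genes, by comparison and family; a point is 1 gene, and the grey box spans the 5th to 95th percentile of all genes with a line at their median. At 4 wks several genes lie below the box, among them Slc22a30 at -0.95, Slco2b1 at -0.83 and Abcg5 at -0.75.

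The promoters of both genes called at 4 wks are shown, since these calls lead the results. Each window runs from 250 bases before to 50 bases after the start site and comes from RefSeq (GRCm38.p6), where 58 of the 73 genes have one. Abcb6 lies on the minus strand of chromosome 1 (chr1:75180343-75180642) and Abcg8 on the plus strand of chromosome 17 (chr17:84682871-84683170). Abcg5, the partner of Abcg8, starts 110 bases away on the opposite strand (start sites at 84683011 and 84683121), and the windows of both genes share 209 bases. Capitals mark 2 motifs on either strand, the GATA box AGATAA and the CCAAT box, which were chosen after the windows were read.
Abcb6: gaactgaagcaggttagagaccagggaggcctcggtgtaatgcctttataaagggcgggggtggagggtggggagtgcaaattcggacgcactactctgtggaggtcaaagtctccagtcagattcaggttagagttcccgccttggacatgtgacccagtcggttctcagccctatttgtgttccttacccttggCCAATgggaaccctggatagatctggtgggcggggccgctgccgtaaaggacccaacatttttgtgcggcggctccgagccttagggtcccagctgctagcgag
Abcg8: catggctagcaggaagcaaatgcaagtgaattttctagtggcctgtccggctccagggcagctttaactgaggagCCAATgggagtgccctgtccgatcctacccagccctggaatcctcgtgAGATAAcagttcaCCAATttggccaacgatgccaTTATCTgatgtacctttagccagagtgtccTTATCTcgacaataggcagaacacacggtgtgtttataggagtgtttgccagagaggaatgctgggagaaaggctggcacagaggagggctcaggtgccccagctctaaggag

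The Abcg8 window held 3 GATA boxes and 2 CCAAT boxes, and the Abcb6 window 1 CCAAT box. All of them lie upstream of the start site of the gene whose window is shown. Among all 32851 RefSeq windows, 11.2% held a GATA box and 37.4% a CCAAT box, and among the 58 transporter genes 12.1% and 43.1% did, on at least 1 of their windows. The antioxidant response element core TGACNNNGC (12.4% of windows, 12.1% of the 58 genes) and the nuclear receptor direct repeat DR1 (0.0396% and 0%) had no match in either window. A match is only a match of letters.

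Abcb6, which carries porphyrins in mitochondria and endolysosomes, was lower in AggE mice at 4 wks post-10-day. The 6 Ctrl mice had ratios of 2.06 to 2.41 (median 2.30) and the 6 AggE mice 1.53 to 1.99 (median 1.83), so that the groups did not overlap. The means were 2.28 ± 0.12 and 1.81 ± 0.16 (SD, n = 6 each), and the difference was -0.47 ± 0.13 (SE; 95% interval -0.73 to -0.21; 1.39-fold lower; limma adjusted p = 0.0367). It was detected on all 39 arrays.

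The call was near the threshold. It was kept when 4 of the 12 mice were left out in turn and lost for the other 8, with differences of -0.52 to -0.42 and limma adjusted p-values of 0.0267 to 0.114. On the slide that held both groups, AggE mouse 1 was at 1.79 and the 3 Ctrl mice averaged 2.34, while the 3 Ctrl mice on their other slide averaged 2.22. With slide as a fixed block the difference was -0.52 (limma adjusted p = 0.243), and with slide as a random block -0.48 (limma adjusted p = 0.162). Over 15 other settings the call was kept in 9 and lost in 6, the other 4 being no background correction, the Cy-5 channel alone, the processed signals and the deposited log10 ratios, with values of -0.78 to -0.31.

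Abcb6 had fitted differences of -0.13 at 24 hrs post-5-day, -0.26 at 24 hrs post-10-day and -0.07 at 1.5 wks, none of them called. At 24 hrs post-10-day the Ctrl ratios were 2.01, 1.71, 2.14 and 2.06 and the AggE ratios 1.63, 1.65, 1.75, 1.79 and 1.78. All but 1 of those Ctrl mice were above every AggE mouse (interval of the difference -0.56 to 0.044). The 10-day change in Abcb6 at 24 hrs did not pass a test against its change at 4 wks (difference 0.22, interval -0.18 to 0.61).

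Abcg8 and Abcg5 form the heterodimer that pumps plant sterols and cholesterol into bile. At 4 wks, Abcg8 was higher in AggE mice, with ratios of 0.11 to 0.47 (median 0.19) against -0.02 to 0.14 (median 0.02) in Ctrl mice. The ranges overlapped. The difference was 0.21 ± 0.057 (SE; interval 0.098 to 0.33; limma adjusted p = 0.0353), and the probe was well above background in 5 of 6 AggE and 2 of 6 Ctrl mice, so part of the Ctrl level is a bound. A second Abcg8 probe, detected on 7 of 39 arrays, had a difference of 0.046 (limma adjusted p = 0.764).

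Leaving out each mouse in turn gave Abcg8 differences of 0.17 to 0.24, with the call lost for 6 of 12 mice (limma adjusted p up to 0.124). With slide as a fixed block the value was 0.11 (limma adjusted p = 0.592), and with slide as a random block 0.18 (limma adjusted p = 0.216). Over 14 other settings the call was kept in 4 and lost in 10, with values of 0.076 (the Cy-5 channel alone) to 0.77 (the processed signals) and limma adjusted p-values up to 0.694, among them 0.13 with no normalization between arrays and 0.13 for the mean over its probes. On the shared slide, AggE mouse 1 was 0.091 above the mean of the 3 Ctrl mice.

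Abcg5, the neighbour on the opposite strand, was measured on all 39 arrays and had ratios at 4 wks of 2.68 to 4.55 (median 3.55) without and 2.33 to 3.22 (median 2.80) with aggressor exposure. Its difference was -0.75 ± 0.35 (SE), opposite in sign to that of Abcg8, with an adjusted limma p of 0.216, so it was not called. Other settings put it between -1.64 (no normalization between arrays) and -0.23 (deposited log10 ratios), with -1.29 for slide as a fixed block and -0.33 for the Cy-5 channel alone. Ctrl mouse 1 had the highest value, and without it the difference was -0.55. The Abcg5 differences at 24 hrs post-5-day and post-10-day were -0.19 and 0.016, and at 1.5 wks 0.43, all with intervals that spanned 0.

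Abcd2, a peroxisomal importer of very long chain acyl-CoA, was the called gene at 24 hrs post-5-day, and it was not well above background on any of the 9 arrays. The Ctrl ratios were -0.14, -0.03, -0.02 and -0.23, and the AggE ratios 0.59, 0.45, 0.25, -0.02 and 0.33. The lowest AggE and the highest Ctrl mouse were equal at this rounding, and the groups did not overlap before it. Its limma adjusted p was 0.00664, and no fold is given, since both groups lie at background. A second, dimmer probe had a limma adjusted p of 0.564, and the processed signals of Feature Extraction gave a difference of the opposite sign (-0.23, limma adjusted p = 0.922). The call was also lost with slide as a random block (limma adjusted p = 0.367), with no normalization between arrays (0.315), with the deposited log10 ratios (0.747) and with a fit of the compared groups alone (0.127). Over 13 other settings it was kept in 8. It was also kept when each of the 9 mice was left out in turn (limma adjusted p-values of 0.000482 to 0.0406).

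Peroxisomes import branched-chain and very long chain acyl-CoA through Abcd3, for which AggE and Ctrl mice overlapped in each comparison. At 4 wks, Ctrl mice had ratios of 2.44 to 3.46 (median 3.36) and AggE mice 2.62 to 3.23 (median 3.02). The difference was -0.16 (interval -0.56 to 0.24), and 2 other Abcd3 probes, detected on 29 and 35 of 39 arrays, gave 0.23 and 0.22, of the opposite sign. Abcd4, which takes part in lysosomal cobalamin export, was not called in any comparison and had a difference of 0.30 at 1.5 wks (limma adjusted p = 1).

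**Figure D3:**
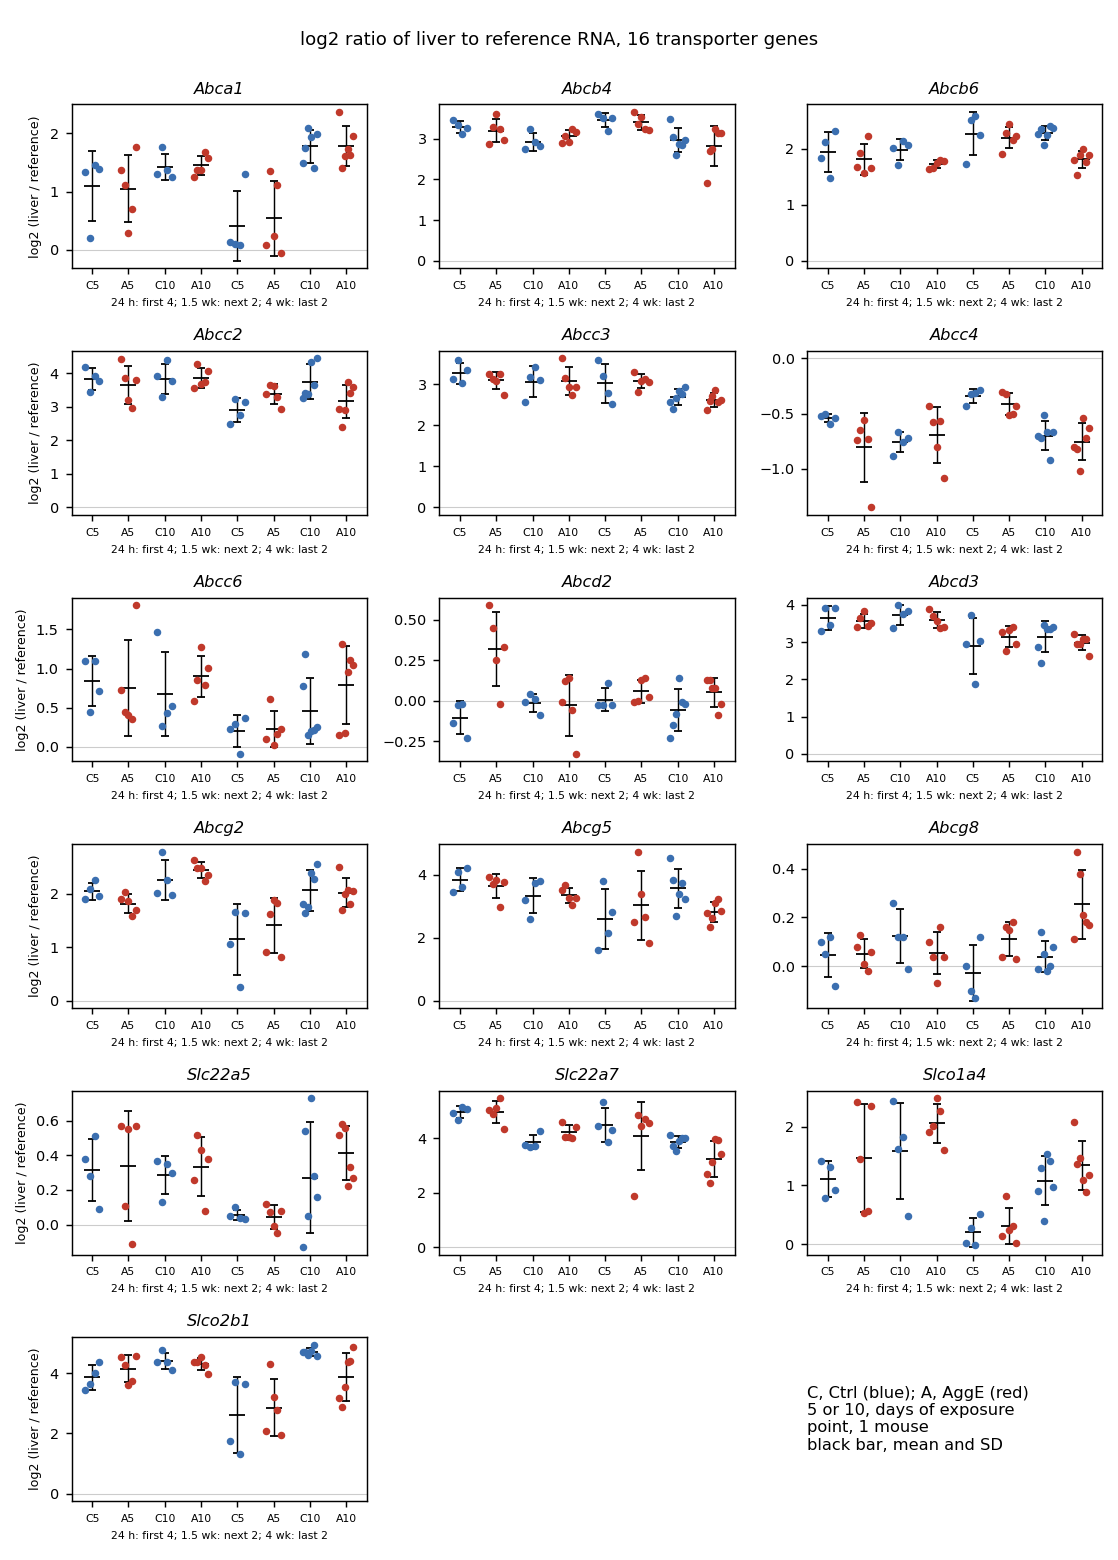
log2 ratio of liver to reference RNA (vertical axis) in each of the 39 mice for the 16 transporter genes given mouse by mouse; points are mice, black bars mean and SD. The vertical ranges differ between panels; Abcb6 is the panel at 4 wks whose AggE points, 1.53 to 1.99, all lie below the Ctrl points.

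The uptake transporters are described first among the genes fixed for hepatocytes. Slco2b1, a sinusoidal carrier of steroid sulfates and drugs, had ratios of 4.56 to 4.95 (median 4.71) in Ctrl mice at 4 wks and 2.89 to 4.87 (median 3.97) in AggE mice. AggE mice 1 to 5, at 3.17, 2.89, 3.55, 4.39 and 4.4, were below every Ctrl mouse, and AggE mouse 6, at 4.87, was within the Ctrl range. The difference was -0.83 ± 0.36 (SE; interval -1.57 to -0.099; limma adjusted p = 0.183) and was not called. Its size moved with the settings, from -1.62 with no normalization between arrays and -1.41 with slide as a fixed block to -0.24 with the Cy-5 channel alone, -0.15 with the processed signals and 0.017 with the deposited log10 ratios. At 1.5 wks Slco2b1 varied widely within both groups, with ratios of 1.76, 3.72, 1.33 and 3.65 in Ctrl and 2.08, 4.3, 3.21, 2.77 and 1.94 in AggE mice.

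Slc22a7, an organic anion transporter of hepatocytes, had 4 wks ratios of 3.52 to 4.13 (median 3.95) in the Ctrl group and of 2.35 to 3.98 (median 3.27) in the AggE group. AggE mice 1 to 3, at 2.68, 2.35 and 3.12, were below every Ctrl mouse, as was mouse 6 at 3.42. The difference was -0.63 ± 0.33 (SE; interval -1.31 to 0.044; limma adjusted p = 0.281), and other settings gave -1.35 (no normalization between arrays) to -0.16 (Cy-5 alone). At 24 hrs post-10-day the Ctrl ratios were 3.76, 3.7, 3.72 and 4.26 and the AggE ratios 4.62, 4.06, 4.06, 4 and 4.42, and the difference was 0.37 (interval -0.41 to 1.16).

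Slco1a4, a carrier of bile acids and steroid conjugates, varied within groups. Its AggE ratios at 24 hrs post-5-day were 2.42, 1.45, 0.53, 0.57 and 2.36, against 1.42, 0.78, 1.31 and 0.93 in Ctrl mice. The fitted differences were 0.36, 0.46, 0.10 and 0.27 at 24 hrs post-5-day, 24 hrs post-10-day, 1.5 wks and 4 wks, and each interval spanned 0. Slc22a5, which imports carnitine, had differences of 0.023, 0.047, -0.012 and 0.14 in the same order, with intervals no wider than -0.29 to 0.38.

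Of the 10 Slco genes with a probe, none was called in any comparison, beside 3.28%, 0.094%, 0% and 4.08% of all genes in the 4 comparisons. At 4 wks Slco2b1 and Slco3a1, a broad anion and prostaglandin carrier, were lower at the unadjusted limit, beside 12.6% of all genes. Slco3a1 had a difference of -0.28 (limma adjusted p = 0.0868; 0.0445 with array weights), and its Ctrl mean was -0.61 on the slide shared with an AggE mouse and -0.23 on the other Ctrl slide. Slco2a1, the prostaglandin transporter, had a difference of 0.38 at 1.5 wks (limma adjusted p = 1). None of the 7 organic cation and carnitine transporters was called in any comparison, beside the same shares of all genes called. Slc22a4, an ergothioneine carrier, was lower at 4 wks at the unadjusted limit, with a difference of -0.23 (limma adjusted p = 0.118; 0.0297 with no normalization between arrays).

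The 15 organic anion and orphan Slc22a genes held 4 higher and 3 lower at the unadjusted limit at 4 wks, beside 9.89% and 12.6% of all genes. Slc22a18, an imprinted orphan transporter, was nearest to a call, with a mean of 4.33 ± 0.58 in AggE and 5.03 ± 0.20 in Ctrl mice (SD, n = 6 each) and a difference of -0.70 ± 0.22 (SE; limma adjusted p = 0.0672). It was called with no normalization between arrays (-1.16, limma adjusted p = 0.0351), over well detected probes alone (-0.7, limma adjusted p = 0.046) and without AggE mouse 4 or 5 (-0.81 each, limma adjusted p = 0.0428 and 0.0477). The other 2 that were lower were Slc22a23, an orphan, at -0.40 (Ctrl means of 3.28 on the shared slide and 2.63 on the other, and 2.61 in AggE mouse 1), and Slc22a6, best known from the kidney as an organic anion exchanger, at -0.36. Slc22a6 was called with no normalization between arrays (-0.97, limma adjusted p = 0.00185), with array weights (-0.51, 0.0316) and without AggE mouse 1 (-0.52, 0.0332). Slc22a8, Slc22a13, Slc22a17 and Slc22a22 were the 4 that were higher, by 0.16 to 0.26, and Slc22a22 was not detected on any array. Slc22a13 was called without Ctrl mouse 5 (0.39, limma adjusted p = 0.0258) and Slc22a17 with slide as a fixed block (0.44, 0.0353). Slc22a30, an orphan of this family, had the lowest value, -0.95, with an interval of -2.28 to 0.37.

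Among the canalicular efflux genes, Abcc2, which exports bilirubin glucuronides and drug conjugates, ranged at 4 wks from 3.25 to 4.44 (median 3.53) in the Ctrl group and from 2.41 to 3.74 (median 3.17) in the AggE group. The difference was -0.58 ± 0.24 (SE; interval -1.07 to -0.089; limma adjusted p = 0.166), and it ranged from -1.39 with no normalization between arrays to 0.17 with the deposited log10 ratios. Slides of the Ctrl mice differed by more than that, with means of 4.14 on the slide shared with AggE mouse 1 and 3.34 on the other. AggE mouse 1 was at 2.92.

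Abcb4, the phosphatidylcholine floppase, had differences of -0.098, 0.14, -0.06 and -0.16 in the 4 comparisons, and all of its intervals lay between -0.48 and 0.51. A second Abcb4 probe, also detected on all 39 arrays, gave -0.41, -0.47, 0.22 and -0.35, opposite in sign at 24 hrs post-10-day and at 1.5 wks. For Abcg2, an exporter of sulfates and drugs, the values were -0.23, 0.18, 0.26 and -0.048. A second Abcg2 probe, detected on 30 of 39 arrays, gave -0.3, -0.11, -0.026 and 0.37 (limma adjusted p = 0.168 at 4 wks). The probes differed in sign in all but the first comparison. Abcb1b, a drug efflux pump, was higher at 4 wks by 0.41 at the unadjusted limit (limma adjusted p = 0.239), with Ctrl means of -0.051 on the slide shared with AggE mouse 1 and 0.68 on the other. AggE mouse 1 was at -0.11, so that the difference within the shared slide was -0.057, of the opposite sign.

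At the basolateral membrane, Abcc3, which returns glucuronides and bile acids to blood, had differences of -0.18, 0.015, 0.049 and -0.08, with all 4 intervals between -0.54 and 0.41. A second Abcc3 probe, detected on 38 of 39 arrays, gave -0.25, -0.37, -0.13 and 0.50 (limma adjusted p = 0.248 at 4 wks). It was opposite in sign in all but the first comparison. Abcc4, an exporter of cyclic nucleotides and sulfated bile acids, was at -0.52, -0.5, -0.59 and -0.54 in Ctrl and at -0.74, -0.65, -0.56, -0.73 and -1.35 in exposed mice 24 hrs after the 5-day regimen. It was detected in 1 of 4 Ctrl and 0 of 5 AggE mice there, and its difference of -0.27 was not called (limma adjusted p = 0.205). Without AggE mouse 5, the lowest, the difference was -0.14. With a smaller background offset of 16 it was -0.63 (limma adjusted p = 0.0317) and with no background correction -0.59 (limma adjusted p = 0.0227), both called, whereas a second Abcc4 probe, detected on 9 of 39 arrays, gave 0.16 (limma adjusted p = 0.369). Abcc6, through which hepatocytes release ATP, had differences of -0.089, 0.23, 0.026 and 0.33, with no call.

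Abca1, which loads cholesterol onto apolipoprotein A-I, had overlapping groups throughout, with differences of -0.047, 0.027, 0.14 and 0.0037. Each interval reached at least 0.51 on 1 side. The 4 wks ratios were 1.41 to 2.1 (median 1.84) for Ctrl and 1.41 to 2.37 (median 1.68) for AggE mice. Among the 13 other Abca genes, 2 were higher and 1 was lower at the unadjusted limit at 24 hrs post-5-day (beside 7.97% and 8.76% of all genes), and 1 was higher and 2 lower at 4 wks (beside 9.89% and 12.6%).

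Abca3, a lipid transporter of lamellar bodies, was in both counts. It was above Ctrl by 0.48 at 24 hrs post-5-day (limma adjusted p = 0.149) and had a difference of -0.35 at 4 wks (limma adjusted p = 0.2; called with no normalization between arrays, at -0.59, limma adjusted p = 0.042), and the regimens and slides differ between these comparisons. Abca8a, a lipid transporter of this family, had a difference of -0.65 at 24 hrs post-5-day (limma adjusted p = 0.204), with Ctrl ratios of 1.99, 1.29, 2.05 and 1.57 and AggE ratios of 1.19, 0.99, 0.68, 0.81 and 1.7. It was called there with an offset of 16 (-1.02, limma adjusted p = 0.0349) and with no background correction (-1.3, limma adjusted p = 0.0152). Abca2, an endolysosomal lipid transporter, was above Ctrl by 0.31 at 4 wks (limma adjusted p = 0.0987), and it was called with array weights (0.37, limma adjusted p = 0.0153), with no normalization between arrays (0.46, 0.00548) and without AggE mouse 1 (0.42, 0.00727) or Ctrl mouse 2 (0.41, 0.0155). Abca7, a phospholipid exporter, had a difference of -0.31 (limma adjusted p = 0.193). Their Ctrl means at 4 wks differed between slides, at -0.52 on the slide shared with AggE mouse 1 and -0.19 on the other for Abca2, and at -0.65 and -0.23 for Abca7. AggE mouse 1 was at -0.59 for Abca2 and at -1.35 for Abca7.

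The remaining genes are given by range. Over all 73, differences ran from -0.65 (Abca8a) to 0.48 (Abca3) at 24 hrs post-5-day, from -0.26 (Abcb6) to 0.73 (Slc22a30) at 24 hrs post-10-day, from -0.39 (Slc22a7) upward at 1.5 wks and from -0.95 (Slc22a30) to 0.41 (Abcb1b) at 4 wks. The 0.73 of Slc22a30 rests on Ctrl mouse 3, at -0.49 and not well above background, against 3.8 to 4.95 in the other Ctrl and 3.34 to 4.59 in the AggE mice, and without it the difference was -0.54, whereas array weights gave 1.42 (limma adjusted p = 0.627). The -0.39 of Slc22a7 rests on AggE mouse 1, at 1.89 against 4.44 to 4.87 in the others, and without it the difference was 0.17. The urate carrier Slc22a12 had a difference of -0.60 at 24 hrs post-5-day (limma adjusted p = 0.196) and was called with an offset of 16 (-0.66, limma adjusted p = 0.0494). Also below the unadjusted limit there were the carnitine carrier Slc22a21 and Slco3a1, lower, and Slc22a2, Slc22a14, Slc22a22, Abca5 and Abcc12, higher, none of them called. These 5 higher genes were not detected on any of the 9 arrays, apart from Slc22a2 in 1 AggE mouse. Abcc12 was called with no background correction (0.52, limma adjusted p = 0.0352), and Slc22a21 without AggE mouse 3 (-0.3, limma adjusted p = 0.0459). After the 10-day regimen, 24 hrs on, Abca15 and Slc22a17 were the 2 higher genes at that limit. At 1.5 wks they were Slco2a1, Abcd4, Slc22a19 and Abcg8. Abcg8 was detected there in 1 AggE and 0 Ctrl mice, and its second probe gave -0.11.

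Counts by role rest on few genes each. At 4 wks, 4.08% of all genes were called, and 9.89% were higher and 12.6% lower at the unadjusted limit. None of the 9 efflux and other Abcc genes outside the canalicular list passed the unadjusted limit at 4 wks, with 4 positive and 5 negative values between -0.16 (Abcc1, a drug and leukotriene exporter) and 0.33 (Abcc6). Abcc9, in this list, was called there with no normalization between arrays (-0.27, limma adjusted p = 0.0356). Of the 5 sterol efflux genes at 4 wks, Abcg8 was called and Abcg5 passed the unadjusted limit with the opposite sign, while Abca1 lay at 0.0037. Of 4 mitochondrial and lysosomal Abcb genes, 1 was called there (Abcb6), and the highest value was 0.076 for Abcb8, a mitochondrial transporter. Abcg3, the 1 gene in no role list, had differences of -0.016, 0.089, -0.011 and 0.0064.

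**Figure D4:**
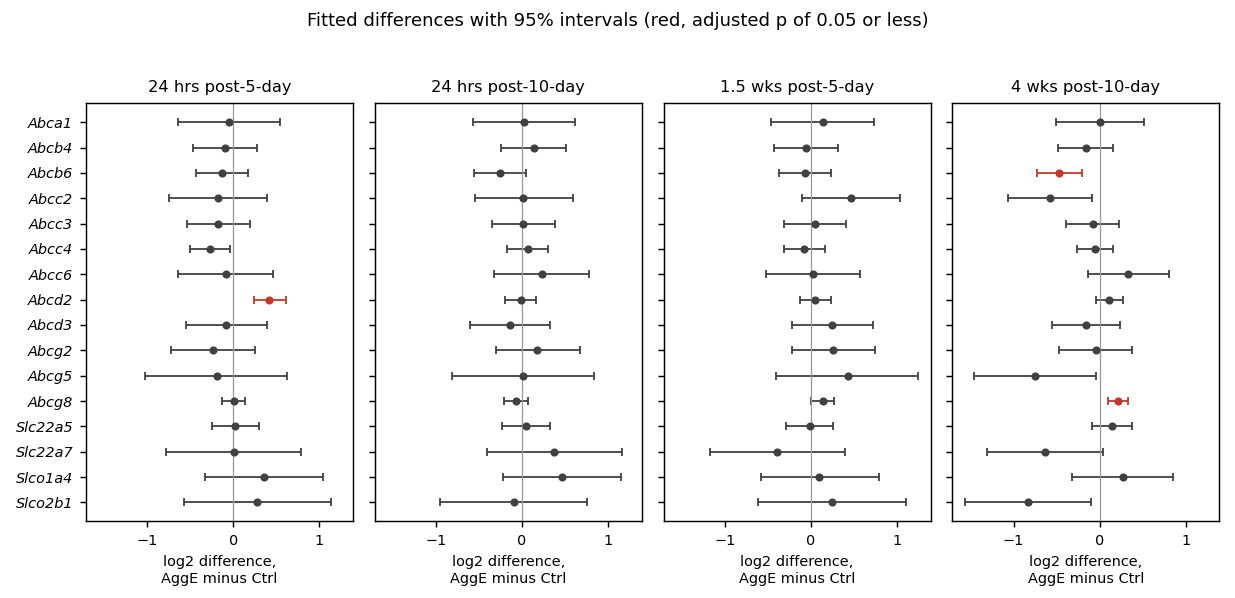
Fitted difference of AggE minus Ctrl (log2, horizontal axis) for the 16 genes in the 4 comparisons; points are estimates, bars 95% intervals, and red marks an adjusted p of 0.05 or less. Red appears for Abcd2 at 24 hrs post-5-day and for Abcb6 and Abcg8 at 4 wks; 13, 14, 12 and 12 of the 16 intervals lay within 1 log2 unit of 0 in these comparisons.

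Well detected genes shared a direction at 4 wks. All 14 genes detected on every array had a negative difference, with a median of -0.44, and 8 of them were lower at the unadjusted limit, beside 889 (26.6%) of the 3339 genes of any kind detected on every array. The shared sign holds for the brightest probes, since other probes of Abcc3 (0.50), Abcd3 (0.23 and 0.22) and Abcg2 (0.37) were positive, and with the mean over a gene's probes 11 of the 14 were negative, with a median of -0.37. Among those 3339, 65.5% had a negative difference, with a median of -0.13. The mean over the 14 genes was 2.93 to 3.26 in the Ctrl mice and 2.36, 2.22, 2.57, 3.02, 2.87 and 2.89 in AggE mice 1 to 6. The mean over the 3339 genes was 0.55 to 0.66 in Ctrl mice and 0.3, 0.39, 0.48, 0.61, 0.58 and 0.6 in AggE mice 1 to 6, lowest on the same 3 arrays, and its part in the result was not tested.

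The count and size of this shift moved with the settings. It was larger with no normalization between arrays (14 negative, median -0.78), with slide as a fixed block (13 and -0.7) and with a background offset of 16 (14 and -0.51). With the Cy-5 channel alone, 12 of the 14 were lower and the median was -0.16, and with the processed signals 12 and -0.18. The deposited log10 ratios gave 10 lower of the 14 and a median of -0.12. The 4 hepatocyte markers were also all negative at 4 wks, with a median of -0.20 and none called, and Apoa1 the lowest at -0.61 (limma adjusted p = 0.24). Their summed intensity overlapped between the groups, as given above. In the other comparisons 9, 6 and 4 of the 14 transporter genes were negative, with medians of -0.094, 0.016 and 0.25 at 24 hrs post-5-day, 24 hrs post-10-day and 1.5 wks.

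**Figure D5:**
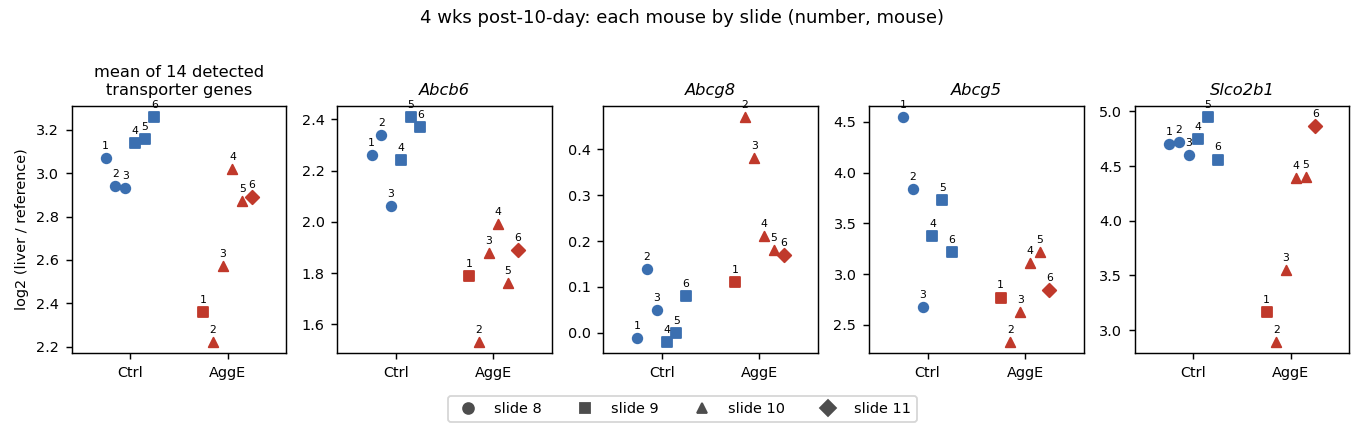
Each mouse at 4 wks post-10-day (log2 ratio of liver to reference) for the mean of the 14 always detected transporter genes and for 4 single genes; the marker shape gives the slide and the number the mouse. For the mean, AggE mice 1 to 3 lie at 2.36, 2.22 and 2.57, and mice 5 and 6 at 2.87 and 2.89, all below the Ctrl range of 2.93 to 3.26, and AggE mouse 4 at 3.02 lies within it.

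Differences between comparisons were tested in the same fit. For the 5-day change minus the 10-day change at 24 hrs, 0 of 73 genes were called (beside 0.0353% of all genes) and 2, Abcd2 and Abcc4, passed the unadjusted limit (beside 6.41%). For the 5-day regimen, comparing the change at 24 hrs with that at 1.5 wks, 0 were called (beside 0.0999%) and 3 passed it, Abca8a, Abcd2 and Abcd4 (beside 7.61%). For the 10-day regimen, comparing the change at 24 hrs with that at 4 wks, 0 were called (beside 0.0823%) and 4 passed it, Abca2, Abcg8, Slc22a6 and Slc22a18 (beside 9.98%). Among these 4, Slc22a18 had the largest value, 0.79 ± 0.34 (SE; limma adjusted p = 0.519).

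Nuclear receptors and other factors known to regulate these transporters were listed as context. Of 16, none was called at 24 hrs or 1.5 wks, and 14 of 16 had a negative difference at 24 hrs post-5-day, with a median of -0.18, beside 49.8% of all genes and 56.3% of those detected on every array. At 4 wks 13 of 16 were negative, with a median of -0.34 (beside 47% and 65.5%), and 1 was called (beside 4.08% of all genes). That one, Nr0b2 (SHP, a corepressor induced by the bile acid receptor), was higher by 0.50 (limma adjusted p = 0.0374) and was detected in 5 of 6 AggE and 3 of 6 Ctrl mice. Foxa2, a hepatocyte factor, had the lowest value at 4 wks, -1.21 (limma adjusted p = 0.122). Of 10 further hepatobiliary transporters none was called, and the largest values at 4 wks were 0.74 for Slc10a1, the sodium-dependent bile acid importer (limma adjusted p = 0.117), and -0.88 for Slc10a2 (limma adjusted p = 0.142).

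Markers of other cells were followed beside these counts. At 4 wks all 6 cholangiocyte markers had a negative difference and Epcam was called (-0.66, limma adjusted p = 0.0244), though it was detected in 0 of 6 AggE and 1 of 6 Ctrl mice. The summed intensity of these 6 markers was 971 to 1310 in AggE and 1300 to 2090 in Ctrl mice at 4 wks. Kupffer cell sums overlapped, at 1580 to 2790 and 1740 to 3270, with 2 of 5 markers positive and 3 negative. The lowest of them was Clec4f at -0.81 (limma adjusted p = 0.145), the lowest of 6 sinusoidal endothelial markers was Clec4g at -0.75 (limma adjusted p = 0.223) and that of 6 leukocyte markers Ptprc at -0.42 (limma adjusted p = 0.0894), none of them called. At 24 hrs the Kupffer marker Marco had differences of 1.2 post-5-day (limma adjusted p = 0.116) and 1.31 post-10-day (limma adjusted p = 1), and all 5 Kupffer markers were positive post-10-day, with sums of 2060 to 2570 in AggE and 1260 to 2280 in Ctrl mice. Post-5-day, 3 of the 5 Kupffer markers were positive and 2 negative, with a median of 0.092. Their sums overlapped there, at 2020 to 3200 in AggE and 1870 to 2410 in Ctrl mice. In the 24 hrs post-5-day mice Spp1, listed with cholangiocytes, was called (1.29, limma adjusted p = 0.00329), and the sum of its list was 1220 to 2930 in AggE against 1320 to 1520 in Ctrl mice. Of these 6 markers, 4 had a positive and 2 a negative difference there, with a median of 0.036. The negative ones were Krt7 (-0.37, limma adjusted p = 0.0522), detected on none of the 9 arrays, and Sox9 (-0.3, limma adjusted p = 0.426), detected in 0 of 5 AggE and 3 of 4 Ctrl mice. Of the markers listed for other tissues, Cela2a, a pancreatic elastase, was called at 24 hrs post-5-day (0.31, limma adjusted p = 0.0415) and was not detected on any of those arrays. At 4 wks the adipose gene Lep was called (0.31, limma adjusted p = 0.0343), detected in 5 of 6 AggE and 3 of 6 Ctrl mice, whereas Car3, also listed for adipose tissue and detected on all 12 arrays, had a difference of -0.62 (limma adjusted p = 0.155). Of the 6 adipose markers 4 were positive and 2 negative, with a median of 0.038, and the sum of the list spanned 12100 to 53000 in AggE and 24500 to 57200 in Ctrl mice. The erythroid sum was 1530 to 12300 (median 7930) in AggE and 1590 to 6360 (median 2070) in Ctrl mice then, and Hba-a1 had a difference of 0.94 (limma adjusted p = 0.149). The part of these markers in the transporter values was not tested.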

How the data were processed

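Liver samples were read in the Cy-5 channel and a reference RNA in Cy-3 on Agilent mouse arrays, without a dye swap. The authors deposited, per spot, median intensities of the spot and its background, processed signal intensities and log10 ratios, all read by Feature Extraction (version 11.5.1.1 per the file headers). The same log10 ratios are in the deposited table of the series. From the median intensities, normexp with an offset of 50, loess within and quantile normalization between arrays were applied with limma 3.58.1 in R 4.3.3 (statmod 1.5.0), and outlier spots and controls were left out. Symbols came from RefSeq accessions (24375 of 25903 probes), with GRCm38.p6 used for names, and sequences from the RefSeq promoter table. limma models were fitted on 8 group means with Benjamini-Hochberg adjustment over all RefSeq probes. The code was tested on simulated data. The number of arrays limits the precision. The p-values measure the spread between these mice.

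Given mouse by mouse were every gene with an adjusted p of 0.05 or less in a comparison (3) and those of 18 fixed hepatocyte transporters well above background on all arrays of a group (15 with Abcg8, which was called), of which 1 is not reported here. Other genes were chosen for the text after their values were seen. Members, gene lists and markers were chosen with earlier results of these data known. Alternatives were other background corrections, scalings, probes, fits, blocks and call rules, and leaving out each array. The fit with only the first scan day at 1.5 wks was added after seeing the data. Same-numbered mice did not vary together, since the correlation of their deviations from the group means was over 0.1 in 5 of 18 pairs (range -0.45 to 0.5).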

Additional observations from a re-analysis of the deposited data

Results flagged for a closer look

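In 8 of 136 sets of mice of 1 group, over 17 genes tested in this way, 1 mouse lay far from the others of its group (5.88%, where chance alone gives about 5%). At 24 hrs post-5-day, Abca1 was 0.2 in Ctrl mouse 2 and 1.33 to 1.46 in the other Ctrl mice. AggE mouse 5 had the lowest Abcc4 value, -1.35, against -0.74 to -0.56, and the highest Abcc6 value, 1.81, against 0.35 to 0.73. Abcg5 was 2.99 in AggE mouse 4 and 3.72 to 3.92 in the rest. At 24 hrs post-10-day, Slc22a7 was 4.26 in Ctrl mouse 4 and 3.7 to 3.76 in the others.

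At 1.5 wks, Slc22a7 was 1.89 in AggE mouse 1 and 4.44 to 4.87 in the other AggE mice. Abca1 was 1.3 in Ctrl mouse 4, which was scanned on the second day, and 0.08 to 0.14 in the others. Abcd2, at background, was 0.11 in Ctrl mouse 3 and -0.03 in each of the others. No difference between comparisons passed the adjusted limma test for these genes.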

How the results depend on the processing

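Results for these genes depended on the settings at 24 hrs post-5-day and at 4 wks. At 24 hrs post-5-day, where 1 gene was called, 4 were with normexp offset 16 or no background correction, 2 with the Cy-5 channel alone, 12 at an unadjusted p of 0.05 or less, and 0 with the processed signals, the series table, no normalization between arrays, only well detected probes, only the 2 groups, slide as a random block or the 2-fold rule. Leaving out 1 mouse gave 1 to 2 (2 without AggE mouse 3). At 4 wks, where 2 were called, 7 were with no normalization between arrays, 5 with array weights, 19 at the unadjusted limit, 1 (Abcb6) with offset 16, the mean over a gene's probes or only the 2 groups, 1 (Slc22a17, at 0.44, and neither Abcb6 nor Abcg8) with slide as a fixed block, and 0 with no background correction, the processed signals, Cy-5 alone, the series table, slide as a random block or the 2-fold rule. Leaving out 1 mouse gave 0 to 4: 0 without AggE mouse 2 or 3 or Ctrl mouse 1, 3 or 4, 1 without Ctrl mouse 5 or 6, and 4 without AggE mouse 1. At 24 hrs post-10-day, 1.5 wks and for the 3 differences between comparisons, 0 were called under every setting fitted, other than the unadjusted limit, which gave 2, 4, 2, 3 and 4, and leaving out 1 mouse gave 0 to 0.

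Among the 9 differences of genes given mouse by mouse that passed the unadjusted limit, signs turned for Abcd2 at 24 hrs post-5-day with the processed signals (-0.23), Abcc4 there with no normalization between arrays (0.044), Abcg8 at 1.5 wks with the processed signals (-0.18), and Abcc2 (0.17) and Slco2b1 (0.017) at 4 wks with the series table. Among the 59 that did not pass it, the sign turned in 209 of 1428 values. The cause was not tested. Without 1 mouse, Slc22a30 at 24 hrs post-10-day moved from 0.73 to -0.54 (without Ctrl mouse 3, chosen after its values were seen) and Slc22a7 at 1.5 wks from -0.39 to 0.17 (without AggE mouse 1). Slide as a fixed block could not be fitted at 24 hrs or for differences between comparisons. Among all genes, 558 were called at 24 hrs post-5-day (16 to 941 under other scalings) and 695 at 4 wks (6 to 1736). With the replicate number as a block, 1 and 2 genes were called at 24 hrs post-5-day and 4 wks and 0 elsewhere, so that the pairing by number changed no count. Dim probes limit what can be seen, since 29 of 73 genes were not detected on all arrays of any group.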
